A study of Rattus norvegicus with 9 samples.

Results

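The interleukins and interleukin receptors of the rat prostate were examined here. The members were all array probes whose RefSeq accession belongs to a rat gene with a symbol that starts with Il and a digit. This rule found 77 probes for 69 genes, of 15163 genes that the array could name. The remaining 13 rat genes of this name pattern, among them Il1r1, Il15ra, Il17rc, Il18rap and Il27, had no matching probe and were not analysed here. RNA from prostates of male Sprague Dawley rats, 6 weeks old at the start, was hybridized to Agilent one-colour arrays, with 3 arrays, labelled as separate samples, in each of 3 groups. Sham rats underwent a sham operation and received injections of corn oil and, by mouth, water as vehicle. BPH rats were castrated and injected daily with dihydrotestosterone (3 mg/kg) for 4 weeks, a hormonal model of benign prostatic hyperplasia, and received the same vehicle. BPH+ghrelin rats had the same surgery and hormone and in addition received ghrelin (20 nmol/kg) for 2 weeks. Every BPH and BPH+ghrelin rat was therefore castrated and hormone-substituted, and no group received ghrelin without BPH. Bulk tissue was measured, so fewer cells of a type and less RNA per cell cannot be told apart.

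Interleukins are secreted proteins by which immune cells, epithelium and stroma signal to each other, and their receptors are mostly pairs of chains shared between several ligands. The common gamma chain (Il2rg) serves IL-2, IL-4, IL-7, IL-9, IL-15 and IL-21, while gp130 (Il6st) serves IL-6 and IL-11. Most of these receptors signal through Janus kinases and STAT factors, whereas receptors of the IL-1, IL-18 and IL-33 branch use MyD88 and IRAK kinases and those of the IL-17 branch use Act1 (Traf3ip2). Decoy receptors and soluble antagonists, such as Il1r2, Il1rn, Il18bp and Il22ra2, bind ligand or receptor without a signal. In the prostate, inflammatory infiltrates are common in hyperplastic tissue, and growth-promoting effects of interleukins on stromal cells have been described.

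Before the groups were compared, it was asked which members gave a signal at all. The scanner software marks a spot as well above background, and each gene was counted by its probe with this mark on the most arrays. Marks of several probes of a gene were not pooled for these counts. On all 9 arrays, 29 of the 69 genes were well above background. Another 19 were so on 1 to 8 arrays, and 21 on 0 arrays. The 11 of 33 ligands found on all 9 arrays were Il33, Il15, Il16, Il18, Il34, Il17b, Il17c, Il1a, Il1b, Il20 and Il23a, several of which epithelium or stroma is known to make. Another 8 ligands (Il2, Il9, Il10, Il11, Il12a, Il12b, Il13 and Il25) were found on some arrays. Il6, the classical gp130 ligand, Il7, the survival factor of lymphocytes, and the T cell products Il4, Il5, Il17a, Il17f, Il21 and Il22 were well above background on 0 of 9 arrays, as were Il3, Il24, Il1f10, Il36a, Il36b and Il36g.

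The share found on all 9 arrays was larger among receptors than among ligands, a difference that was not tested. Of 30 signalling receptor chains, 15 were well above background on all 9 arrays, namely the shared chains Il2rg, Il2rb, Il6st, Il10rb and Il17ra and the more specific Il3ra, Il4r, Il6r, Il7r, Il11ra1, Il12rb2, Il13ra1, Il17rd, Il17re and Il1rapl2. A further 8 (Il1rap, Il2ra, Il9r, Il10ra, Il18r1, Il20ra, Il20rb and Il21r) were found on some arrays, and 7 were so on 0 arrays (Il12rb1, Il17rb, Il1rapl1, Il1rl1, Il1rl2, Il22ra1 and Il5ra). Il1rl1, the receptor of IL-33, thus gave no signal well above background from either of its 2 probes, although Il33 itself was found throughout. Of the 4 antagonists, Il1rn and Il22ra2 were found on all arrays and Il18bp and Il36rn on some. Of the 2 decoy receptors, Il13ra2 was found on all arrays and Il1r2 on some. By family, the IL-17 group had 5 of 9 genes on all arrays, the common gamma chain group with IL-13 had 7 of 16, the IL-1 group 6 of 18 and the common beta chain group, which holds IL-3 and IL-5, 1 of 4. Per array, 34 (sham 2) to 43 (BPH 2) of the 69 members had any probe well above background. This share, 49.3% to 62.3%, was below that of all named genes on each of the 9 arrays (66.1% to 78.4%).

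**Figure D1:**
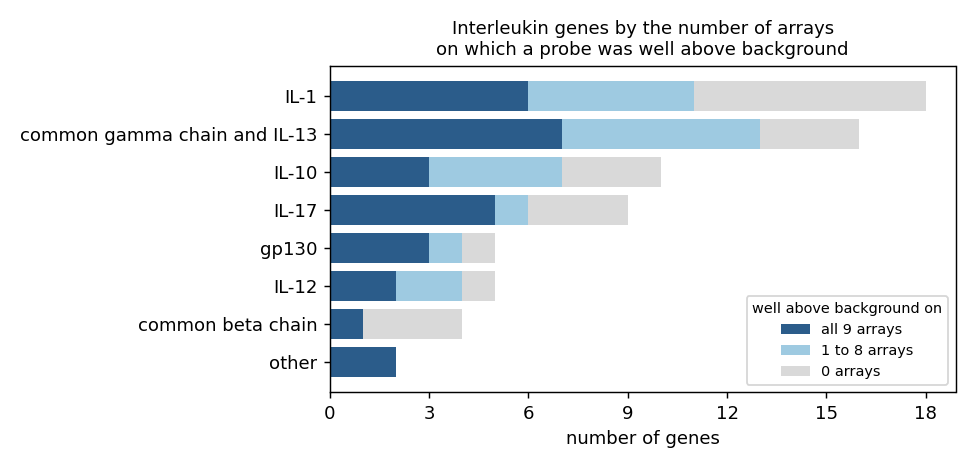
Number of interleukin and receptor genes (horizontal axis) in each family (vertical axis), split by the number of arrays on which the gene's most often marked probe was well above background. The IL-1 group is the largest with 18 genes, of which 6 were found on all 9 arrays, and the common beta chain group has 1 of 4.

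The arrays differed in signal. The median raw intensity was 40.1 on sham 2 and 72.9 to 130 on the other arrays, and 61.4% of all probes were well above background on sham 2 against 69.48% to 75.05% elsewhere. By the scan times in the array headers, BPH 1, 2 and 3 and BPH+ghrelin 1 were scanned together, BPH+ghrelin 2 and 3 with sham 1 and 2, and sham 3 apart. Arrays with the same scan time were taken to lie on the same slide, which the headers do not state. BPH and sham shared no scan, so scan and group can be separated there only indirectly, through the BPH+ghrelin arrays scanned with each. Among the 30 member probes well above background on all arrays, 1 array of each group lay between its group's other arrays far more often than the rest: sham 3 for 70.0%, BPH 2 for 83.3% and BPH+ghrelin 2 for 76.7% of probes, against 76.9%, 74.6% and 72.2% of all 17858 such probes. Whether the arrays of a group are fully independent samples was not tested, and every SE and p below treats them as such. The prostate label was met on every array. Probasin (Pbsn), a secretory protein of the rat prostate, was at 13.11 to 16.41 on the log2 scale, and Hoxb13 was well above background on all 9.

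All values below are quantile-normalized log2 signals, so a difference of 1 is a 2-fold difference, and levels are compared between arrays for 1 probe, never between probes. Tested were genes with a probe that carried the background mark on 3 or more of the 6 arrays compared. It was called if the adjusted p of limma, over all genes tested, was under 0.05. A gene that is not called is described by its values only. With 3 arrays in each group, the smallest two-sided p of an exact permutation test is 0.1, so arrays that do not overlap between groups are counted as a description.

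The first question was whether interleukin genes differed between hyperplastic and sham prostates. In BPH against sham, 41 members were tested and 0 were called, where 4.34% of all 19552 genes tested were. At an unadjusted p under 0.05 there were 5 members (1 higher, 4 lower), which is 12.2% beside 26.5% of all genes. Without overlap of the arrays there were also 5 (3 higher, 2 lower), beside 31.3% of all genes. The median difference over the members was 0.07 and over all genes 0.04. The leading values were a higher Il22ra2, the soluble antagonist of IL-22, and a lower Il1r2, the decoy receptor of IL-1.

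Il22ra2 was at 4.00, 4.16 and 4.28 on the sham arrays and at 4.62, 5.07 and 5.55 on the BPH arrays. All BPH values lay above all sham values, yet BPH 3 was about as far from BPH 1 as the group means were from each other. The difference was 0.94 (SE 0.23, 1.91-fold, limma adjusted p = 0.0584). It was past the threshold without BPH 1 (1.16, adjusted p = 0.0333) and when only genes well above background on all 6 arrays were tested (adjusted p = 0.0456). With any 1 of the 9 arrays left out of the fit, the adjusted p was 0.0333 to 0.199. Its ligand Il22 was well above background on 0 arrays and the signalling chain Il22ra1 on 0 arrays too, while the second chain Il10rb was found on all 9.

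Il1r2, which binds IL-1 without a signal and is abundant on neutrophils, was at 3.27, 5.67 and 4.40 in sham and at 3.04, 2.83 and 2.53 in BPH. The sham arrays spread more than 2 log2 units, with the highest value on sham 2 and a value on sham 1 just above the BPH arrays. The difference was -1.64 (SE 0.54, limma adjusted p = 0.115), and without sham 1 it was -2.23 and called (adjusted p = 0.0230). Without sham 2 it was -1.03 (adjusted p = 0.170), and over the 9 arrays left out in turn the adjusted p was 0.0230 to 0.276. S100a8 and S100a9, 2 of the 4 neutrophil markers on the array, had the same order within sham, and Csf3r and Ngp did not. S100a8 was at 4.06, 7.64 and 6.17 in sham, 3.05 to 4.21 in BPH and 3.76 to 4.46 in BPH+ghrelin. Over the 4 neutrophil markers, the mean log2 signal was 3.22 to 5.51 in sham, 2.41 to 3.18 in BPH and 2.78 to 3.45 in BPH+ghrelin. Of the 3 tested, 0 were called in any comparison, beside 1.48% to 6.29% of all genes. Ngp was well above background on 0 arrays. The part of these cells in the Il1r2 values was not tested.

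Il1b, the main secreted IL-1 of myeloid cells, followed that order too, with 5.54, 7.47 and 6.34 in sham and 5.90, 5.97 and 6.15 in BPH. The groups overlapped and the difference was -0.45 (SE 0.43, limma adjusted p = 0.518). Il1a, its epithelial relative, was steady at 4.43 to 4.70 in sham and 4.58 to 4.78 in BPH. The antagonist Il1rn was at 7.47 to 7.99 in sham and 7.00 to 8.52 in BPH. The accessory chain Il1rap showed no separation either (-0.12, 95% confidence interval -1.08 to 0.84).

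Il33, the nuclear alarmin of epithelial and stromal cells, was at 10.70, 8.08 and 8.49 in sham and 10.11, 9.71 and 9.31 in BPH. Sham 1 stood above all BPH arrays, and the other sham arrays stood below them. The difference was 0.61 (SE 0.60, limma adjusted p = 0.527) with all arrays, but 1.42 and called without sham 1 (adjusted p = 0.0195). A single array thus decided whether Il33 passed the threshold here, and without sham 1 the share called was 15.7% of all genes. Il18 (6.27 to 7.14 in sham, 6.20 to 6.85 in BPH) and Il34, a ligand of the macrophage receptor Csf1r (7.84 to 8.81 in sham, 8.26 to 8.63 in BPH), overlapped between the groups.

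Il17b, an epithelial member of the IL-17 family, was at 7.65, 7.68 and 7.45 in sham and 6.95, 7.21 and 7.44 in BPH. The highest BPH value missed the lowest sham value by a small margin, and the difference of -0.39 (SE 0.15) was not called (limma adjusted p = 0.147). Il13ra2, the decoy receptor of IL-13, was at 7.29, 8.47 and 7.68 in sham and 6.65, 6.89 and 7.51 in BPH, with BPH 3 inside the sham range. Its difference was -0.80 (SE 0.32, limma adjusted p = 0.163). Il18bp, the soluble antagonist of IL-18, was at 3.27, 1.88 and 3.35 in sham and 3.94, 3.47 and 3.42 in BPH (difference 0.78, SE 0.44, limma adjusted p = 0.285), close to the background level. The Il18bp difference was 0.30 without sham 2, 1.04 without sham 3 and 0.05 with normexp background correction. Il2ra, the high-affinity chain for IL-2, was also dim, at 2.56 to 3.14 in sham and 3.17 to 3.42 in BPH (difference 0.40, limma adjusted p = 0.263). The Il2ra difference was 0.23 without sham 3, and 0.07 both with arrays scaled to their 75th percentile and with normexp background correction.

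The second question was whether ghrelin shifted interleukin genes in hyperplastic prostates. In BPH+ghrelin against BPH, 40 members were tested and 0 were called, beside 1.48% of all 19749 genes. At an unadjusted p under 0.05 there were 8 of the 40 (3 higher, 5 lower), beside 21.1% of all genes. The arrays did not overlap for 12 (5 higher, 7 lower), or 30.0% beside 39.2% of all genes. The median difference was -0.03 over members and 0.02 over all genes. The 3 groups share 1 estimate of the spread, and without sham 2 there were 5 members called of 40 (Il7r, Il15, Il33, Il17b and Il18bp), beside 10.49% of all genes. The BPH arrays alone let Il18bp meet the filter, so its call is no support for a difference. Without sham 1 there was 1 (Il33), beside 1.70%, and without sham 3 or any of the 6 compared arrays 0, beside 0.02% to 2.01%. The lower values with the smallest p belonged to the alarmin Il33, to the lymphocyte growth factor Il15, to the IL-7 receptor Il7r and to the leukocyte chemoattractant Il16.

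Il33 had the greatest difference of means. It was at 10.11, 9.71 and 9.31 in BPH and at 7.48, 7.30 and 7.23 in BPH+ghrelin, so the groups lay well apart, and the BPH+ghrelin arrays were close together. The difference was -2.37 (SE 0.60, 95% confidence interval -3.75 to -0.99), which is 5.17-fold lower, with a limma adjusted p of 0.0927. The SE is carried largely by the sham arrays in the joint fit: the SD was 1.41 in sham, 0.40 in BPH and 0.13 in BPH+ghrelin (n = 3 each). BPH+ghrelin 1, which shared its scan time with all BPH arrays, differed from the BPH mean by -2.23. With any 1 of the 6 compared arrays left out, the adjusted p was 0.103 to 0.291. Leaving out a sham array changes the SE but not the difference, and Il33 was called without sham 1 (adjusted p = 0.0160) and without sham 2 (adjusted p = 0.0348) but not without sham 3 (adjusted p = 0.143).

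Il7r, the alpha chain by which lymphocytes sense IL-7, was at 5.39, 5.24 and 5.14 in BPH and at 4.19, 4.38 and 4.52 in BPH+ghrelin. The groups were clearly apart, and the difference was -0.90 (SE 0.19, 1.86-fold lower, limma adjusted p = 0.0661). With arrays scaled to their 75th percentile in place of quantile normalization, the adjusted p was 0.0419, and without sham 2 it was 0.0145. Its dimmer probe, well above background on 4 of these 6 arrays, gave -0.64. The ligand Il7 was well above background on 0 arrays.

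Il15, which sustains natural killer and memory T cells, was at 5.96, 5.71 and 5.40 in BPH and 4.89, 4.93 and 4.87 in BPH+ghrelin. Each BPH+ghrelin array lay below each BPH array, and the difference was -0.79 (SE 0.21, 1.73-fold lower, limma adjusted p = 0.0964, and 0.0296 without sham 2). The chains by which IL-15 signals, Il2rb and Il2rg, differed by 0.01 (95% confidence interval -0.45 to 0.48) and 0.06 (95% confidence interval -0.30 to 0.41). Il16, a chemoattractant for CD4 T cells that lymphocytes store as a precursor, was at 6.89, 6.60 and 6.46 in BPH and 5.86, 6.14 and 6.27 in BPH+ghrelin. The gap between the nearest arrays was small, and the difference was -0.56 (SE 0.17, 1.47-fold lower, limma adjusted p = 0.123).

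The promoters of these 4 genes are printed because these were the members lower in BPH+ghrelin than in BPH at an unadjusted p under 0.01. Each line gives the 250 bases before the annotated start in RefSeq, assembly GRCr8, read 5′ to 3′ on the gene's own strand. The windows lie at chr1:237115323-237115572 (plus strand) for Il33, chr2:60204918-60205167 (minus strand) for Il7r, chr19:42544456-42544705 (plus strand) for Il15 and chr1:147116743-147116992 (minus strand) for Il16. Capitals mark a match to TGTTCT, a hexamer that response elements of several steroid hormone receptors share.
Il33: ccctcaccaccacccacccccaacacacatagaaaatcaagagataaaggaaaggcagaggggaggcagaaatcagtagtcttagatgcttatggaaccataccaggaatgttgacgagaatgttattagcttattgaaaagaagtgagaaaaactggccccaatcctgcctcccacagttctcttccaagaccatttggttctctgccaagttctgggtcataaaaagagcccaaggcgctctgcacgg
Il7r: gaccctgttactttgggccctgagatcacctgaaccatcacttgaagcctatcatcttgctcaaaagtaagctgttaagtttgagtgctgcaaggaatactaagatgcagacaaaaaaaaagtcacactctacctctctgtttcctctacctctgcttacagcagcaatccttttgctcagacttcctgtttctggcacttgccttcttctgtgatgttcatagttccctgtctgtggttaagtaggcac
Il15: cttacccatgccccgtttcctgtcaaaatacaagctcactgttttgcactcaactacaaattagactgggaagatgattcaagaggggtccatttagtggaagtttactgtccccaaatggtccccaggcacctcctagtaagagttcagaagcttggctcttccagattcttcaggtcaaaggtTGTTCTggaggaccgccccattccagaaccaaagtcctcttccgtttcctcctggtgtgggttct
Il16: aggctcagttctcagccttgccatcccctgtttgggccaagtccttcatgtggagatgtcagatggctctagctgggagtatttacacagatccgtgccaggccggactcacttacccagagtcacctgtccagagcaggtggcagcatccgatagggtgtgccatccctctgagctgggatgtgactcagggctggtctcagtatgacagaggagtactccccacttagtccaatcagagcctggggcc

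Motifs were searched in these windows on both strands: the STAT motif TTCNNNGAA, the NF-kB motif, the interferon-stimulated response element, the hexamer TGTTCT and the TATA motif TATAAA. In the 4 windows only the hexamer in Il15 was found, 65 bases before the start, with no other motif there to overlap. TGTTCT was held by 17.1% of all 27457 promoter windows of this length and by 7 of the 53 members with a window. The STAT motif was held by 7.52% of all windows and 5 members, the NF-kB motif by 1.28% and 3, the interferon element by 3.29% and 4, and the TATA motif by 13.1% and 10. A match describes letters in a window and no binding.

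**Figure D2:**
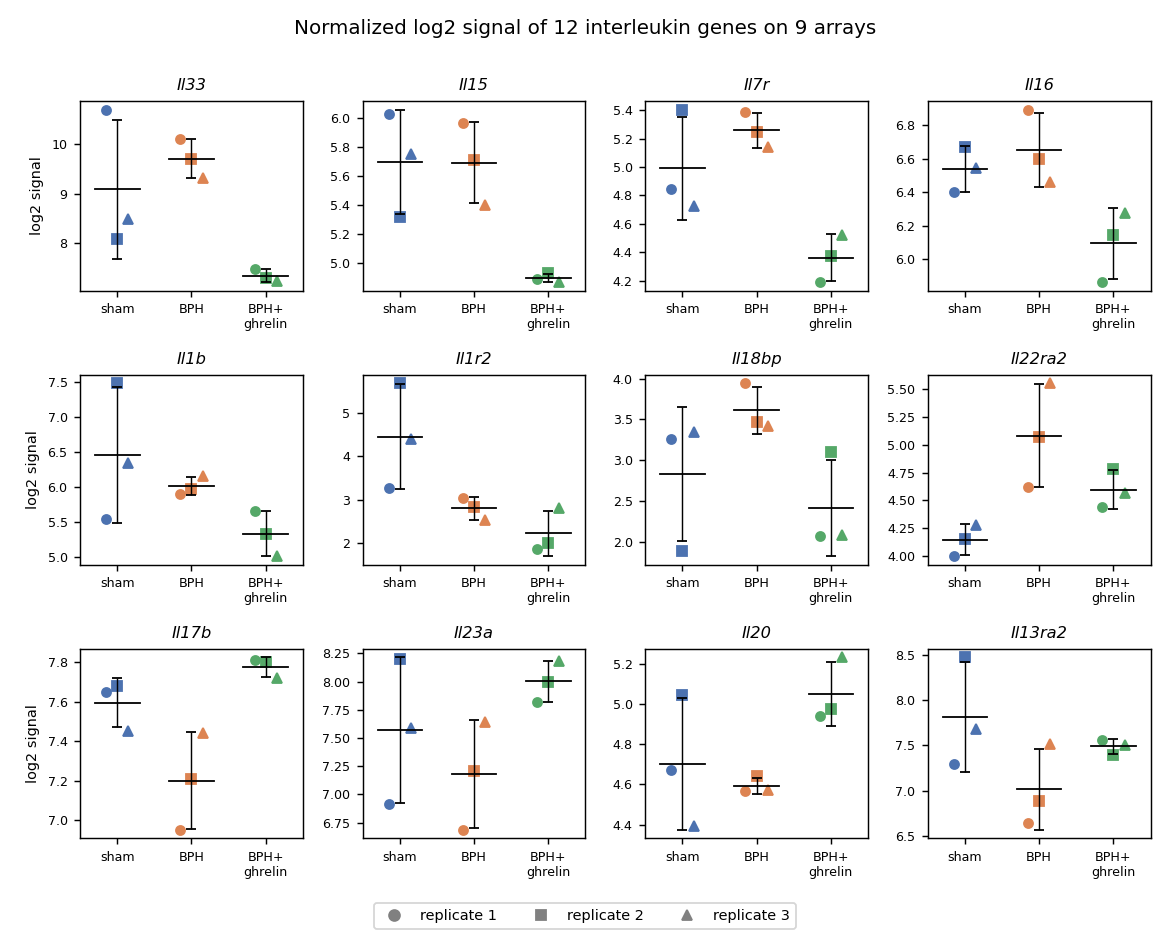
Quantile-normalized log2 signal (vertical axis, own scale per gene) of 12 interleukin genes in sham, BPH and BPH+ghrelin prostates, with symbols for single arrays, lines for means and bars for SD (n = 3). Il33 lies at 7.23 to 7.48 in BPH+ghrelin and at 9.31 to 10.11 in BPH, while the sham arrays of Il33, Il1b and Il1r2 spread widely.

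Il1b was at 5.90, 5.97 and 6.15 in BPH and at 5.66, 5.32 and 5.01 in BPH+ghrelin, without overlap, but the difference of -0.67 (SE 0.43) had an adjusted p of 0.391 in limma. For Il1b, BPH+ghrelin 1, which shared its scan time with all BPH arrays, differed from the BPH mean by -0.35. Il18bp was at 3.94, 3.47 and 3.42 in BPH and 2.07, 3.10 and 2.08 in BPH+ghrelin (difference -1.20, SE 0.44, limma adjusted p = 0.176, and 0.0465 without sham 2), and only 1 of 3 BPH+ghrelin arrays was well above background. The BPH arrays alone met the filter, so neither adjusted p is support for a difference. Over the processing alternatives, the Il18bp difference was -1.54 to -0.14. IL-18 itself did not separate: Il18 was at 6.20 to 6.85 in BPH and 6.21 to 6.42 in BPH+ghrelin. Il1rn differed by -0.04 (95% confidence interval -0.85 to 0.77) and Il34 by -0.35 (-0.93 to 0.23).

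Among the members higher with ghrelin, Il17b had the smallest p. It was at 6.95, 7.21 and 7.44 in BPH and 7.81, 7.80 and 7.72 in BPH+ghrelin, so that the BPH+ghrelin arrays were tight and above every BPH array. The difference was 0.58 (SE 0.15, 1.49-fold, limma adjusted p = 0.0946, and 0.0469 without sham 2). Il23a, the IL-23 subunit, was at 6.69, 7.21 and 7.64 in BPH and 7.82, 8.00 and 8.18 in BPH+ghrelin (difference 0.82, SE 0.35, limma adjusted p = 0.224). Its partner subunit Il12b was well above background on only some arrays. Il20, an epithelial cytokine of the IL-10 family, was at 4.56, 4.64 and 4.57 in BPH and 4.94, 4.98 and 5.23 in BPH+ghrelin (difference 0.46, SE 0.18, limma adjusted p = 0.196). Il20ra, one of its receptor chains, was dim at 2.55 to 3.16 in BPH and 3.20 to 3.75 in BPH+ghrelin (difference 0.58, limma adjusted p = 0.452).

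The third comparison set BPH+ghrelin against sham. It shares its arrays with both comparisons above and is no independent repeat of either. Of 40 members tested, 0 were called, beside 6.29% of all 19197 genes. At an unadjusted p under 0.05 there were 7 (1 higher, 6 lower), or 17.5% beside 23.7% of all genes, and the arrays did not overlap for 9 (3 higher, 6 lower), or 22.5% beside 30.4%. The median difference was -0.05 over members and 0.04 over all genes. Il1r2, Il15, Il7r, Il33 and Il16 were the lower members that led.

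Il1r2 was at 1.86, 2.00 and 2.82 in BPH+ghrelin and well above background on 0 of 3 of these arrays, against 3.27, 5.67 and 4.40 in sham. It was therefore at least 3.34-fold lower, measured against the background limit, with a limma adjusted p of 0.0512. It passed the filter through the sham arrays alone, so this p is no support for a difference. Il15 was at 6.03, 5.32 and 5.75 in sham, above every BPH+ghrelin array (difference -0.80, SE 0.21, limma adjusted p = 0.0602), and it was called without sham 2 (-0.99, adjusted p = 0.0195) but with no other array left out (up to 0.181).

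Il7r was at 4.85, 5.40 and 4.72 in sham (difference -0.63, SE 0.19, limma adjusted p = 0.0963). Scaling to the 75th percentile called Il15, Il1r2 and Il7r, with adjusted p of 0.0357, 0.0444 and 0.0412, where the call of Il1r2 is again no support. Il33 was lower by 1.76 on the log2 scale (fitted difference -1.76, SE 0.60, limma adjusted p = 0.123) and was called without sham 2 (-2.26, adjusted p = 0.0499), but not without sham 1 (-0.95, adjusted p = 0.0564). Over the 9 arrays left out in turn, its adjusted p was 0.0499 to 0.281. Between BPH+ghrelin 2 and 3 and sham 1 and 2, which shared a scan time, the difference in means was -2.13 for Il33, -0.77 for Il15, -0.68 for Il7r and -0.33 for Il16. Il1b was at 5.01 to 5.66 in BPH+ghrelin and 5.54 to 7.47 in sham (difference -1.12, SE 0.43, limma adjusted p = 0.157), and it was called without sham 1 (-1.58, adjusted p = 0.0362). Il16 differed by -0.45 (SE 0.17, limma adjusted p = 0.148).

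Higher values without overlap were small. Il13, a type 2 cytokine, was at 3.25, 3.10 and 2.94 in sham and 3.86, 3.55 and 3.34 in BPH+ghrelin (difference 0.48, SE 0.17, limma adjusted p = 0.137), with only 1 of 3 sham arrays well above background, and with normexp background correction the difference was -0.01. Il22ra2 was at 4.44, 4.78 and 4.56 in BPH+ghrelin, between the sham and BPH means (difference from sham 0.45, limma adjusted p = 0.275). Il17b differed by 0.18 (SE 0.15, limma adjusted p = 0.508), and of the receptors without overlap Il17ra was lower by a similar size (-0.23, SE 0.21, limma adjusted p = 0.559).

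**Figure D3:**
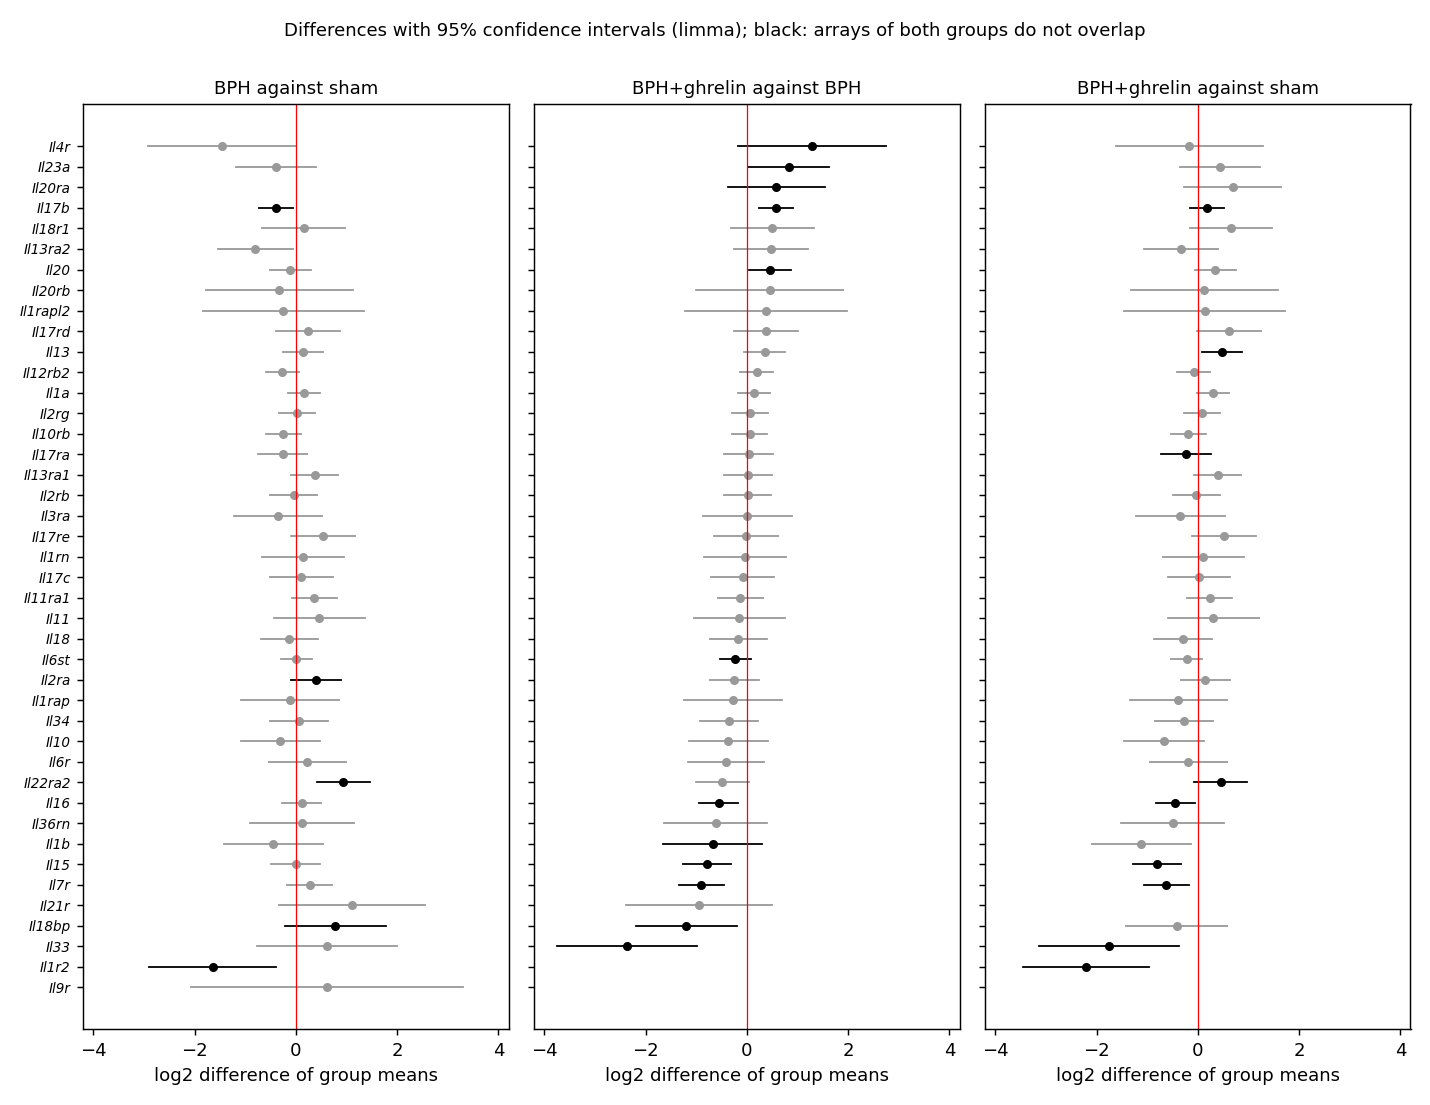
Log2 difference of group means (horizontal axis) with 95% confidence intervals from limma for each tested interleukin gene (vertical axis) in the 3 comparisons; black marks genes whose arrays do not overlap between the groups, and a gene without a mark was not tested there. Il33 has the greatest difference in BPH+ghrelin against BPH (-2.37), and Il4r the greatest positive one (1.29).

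Among the shared receptor chains, Il2rg was at 11.21 to 11.45 in sham, 11.27 to 11.43 in BPH and 11.11 to 11.62 in BPH+ghrelin. Il6st was at 11.80 to 12.19, 11.91 to 12.07 and 11.67 to 11.81 in the same groups, and its difference of -0.23 between BPH+ghrelin and BPH (95% confidence interval -0.54 to 0.08) was not called. Il10rb was at 10.01 to 10.30, 9.75 to 10.20 and 9.93 to 10.08. Il17ra, the chain shared within the IL-17 family, had means of 11.75 ± 0.22, 11.49 ± 0.41 and 11.52 ± 0.08 (SD, n = 3), and Il2rb, shared by IL-2 and IL-15, was at 4.15 to 4.63, 4.15 to 4.66 and 4.22 to 4.67. In BPH against sham, the interval of the difference reached from -0.33 to 0.38 for Il2rg, from -0.30 to 0.32 for Il6st and from -0.60 to 0.10 for Il10rb. Il6r, the alpha chain for IL-6, was at 9.49 to 10.67 in sham, 9.85 to 10.79 in BPH and 9.85 to 10.08 in BPH+ghrelin. Il11ra1, the alpha chain for IL-11, was at 7.58 to 7.97, 7.81 to 8.41 and 7.81 to 8.21. Il17re, a receptor chain for IL-17C, was at 11.62 to 12.81 in sham and 12.66 to 12.95 over BPH and BPH+ghrelin.

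Some members varied widely between the arrays of a group or were dim. Il21r was at 5.14 on BPH 3 and at 1.96 to 3.31 on the other 8 arrays. Il1rapl2, a neural member of the IL-1 receptor family, was at 4.79, 6.93 and 8.00 in BPH+ghrelin, an SD of 1.63 against 0.50 in sham and 0.14 in BPH (n = 3 each). Il9r ranged from 0.71 to 4.22 in sham and from 0.78 to 4.82 in BPH. Il10, the anti-inflammatory cytokine, was dim at 2.09 to 3.66 over the 9 arrays, well above background on 5, and its receptor Il10ra was so on 2. No statement on the groups is made for these genes.

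Probes of 1 gene could disagree. In BPH against sham, the probes of Il3ra, the alpha chain for IL-3, differed by -0.35 and 0.22, and in BPH+ghrelin against sham those of Il1rap by -0.39 and 0.50, the second of each well above background on 4 and 2 of the 6 arrays. Il4r and Il13ra1 are given in full. The brighter probe of Il4r, the alpha chain for IL-4 and IL-13, was at 4.79, 7.74 and 6.39 in sham, 4.70, 4.80 and 5.05 in BPH and 5.67, 6.15 and 6.59 in BPH+ghrelin. It differed by -1.46 in BPH against sham (limma adjusted p = 0.189, called without sham 1 at -2.22, adjusted p = 0.0225) and by 1.29 in BPH+ghrelin against BPH (limma adjusted p = 0.287). The dimmer probe, also well above background on all of these arrays, was at 4.37 to 4.68 in sham, 4.49 to 4.83 in BPH and 4.13 to 5.01 in BPH+ghrelin, with differences of 0.15 and -0.17. The large values of Il4r thus rest on 1 of its 2 probes.

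For Il13ra1, the partner chain of Il4r, the case was the reverse. The brighter probe was at 7.62, 8.45 and 7.86 in sham, 8.45, 8.29 and 8.30 in BPH and 8.44, 8.33 and 8.35 in BPH+ghrelin (difference of BPH from sham 0.37, limma adjusted p = 0.276). The dimmer probe was at 4.98, 3.91 and 4.60 in sham, 5.91, 5.82 and 5.87 in BPH and 5.58, 5.56 and 5.34 in BPH+ghrelin, a difference of 1.37 in BPH and 1.00 in BPH+ghrelin from sham. With the mean of both probes, Il13ra1 was called in BPH against sham (0.87, limma adjusted p = 0.00695) and in BPH+ghrelin against sham (0.69, adjusted p = 0.0132). Without sham 2 the brighter probe was called too, at 0.61 (adjusted p = 0.0405) and 0.63 (adjusted p = 0.0245). BPH+ghrelin and BPH differed by 0.02 on the brighter and -0.37 on the dimmer probe.

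**Figure D4:**
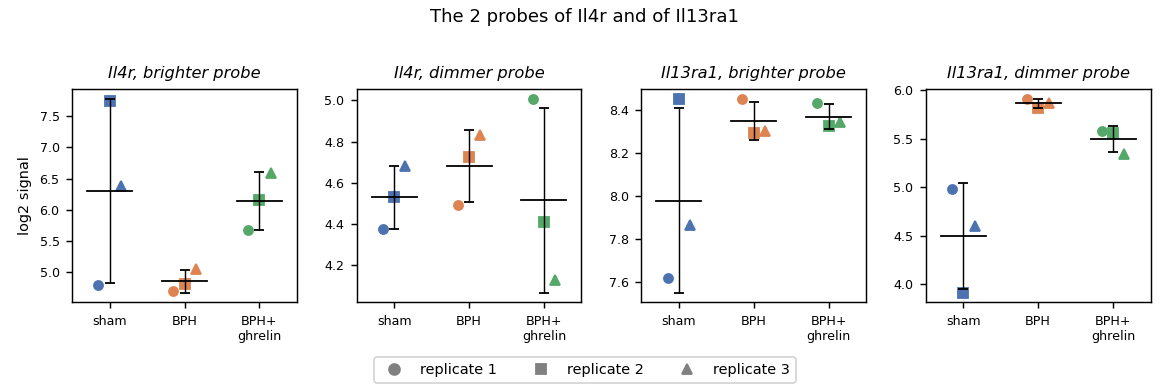
Log2 signal (vertical axis, own scale per panel) of both probes of Il4r and of Il13ra1 on the 9 arrays by group, with symbols for single arrays, lines for means and bars for SD (n = 3). The brighter Il4r probe is at 4.70 to 5.05 in BPH where the dimmer one shows no separation, and the dimmer Il13ra1 probe separates sham from the other groups.

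Genes through which interleukins signal were taken as a list of 52, of which 45 had a named probe. In BPH against sham, 41 were tested, of which 11 had an unadjusted p under 0.05, beside 26.5% of all genes. Of the 41, 0 were called higher and 1 lower, beside 4.34% of all genes called. That gene was Stat5a, the STAT factor downstream of the common gamma chain and of prolactin. It was at 13.49, 12.58 and 13.15 in sham, 10.86, 10.42 and 9.81 in BPH and 10.20, 10.23 and 10.30 in BPH+ghrelin, so every sham array lay far above all others. Stat5a fell by 2.71 on the log2 scale in BPH against sham (SE 0.30, limma adjusted p = 0.00451) and by 2.83 in BPH+ghrelin against sham (SE 0.30, limma adjusted p = 0.00251), where it was again the only one called of 41 tested, beside 6.29% of all genes. In BPH+ghrelin against BPH, 0 of 42 were called beside 1.48% of all genes (5 at an unadjusted p under 0.05, beside 21.1% of all genes), and Stat5a differed by -0.12.

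Below the threshold, the inhibitory receptor Sigirr, which dampens IL-1 family signals, was at 9.42 to 9.80 in sham and 10.05 to 10.31 in BPH (difference 0.57, SE 0.14, limma adjusted p = 0.0586). The kinase Jak1, which pairs with gp130 and gamma chain receptors, was at 10.32, 9.21 and 9.93 in sham, 10.85, 10.58 and 10.47 in BPH and 9.81, 9.80 and 9.80 in BPH+ghrelin. Jak1 was thus higher in BPH than in both other groups, but neither the difference from sham (0.82, limma adjusted p = 0.105) nor that of BPH+ghrelin from BPH (-0.83, limma adjusted p = 0.136) was called. Socs3, the feedback inhibitor of gp130, was at 4.69 to 5.23 in sham and 4.43 to 4.57 in BPH (difference -0.45, limma adjusted p = 0.133). Csf1r (-0.58, limma adjusted p = 0.0796) and Tollip (0.61, limma adjusted p = 0.0996) had a smaller adjusted p than Jak1 in BPH against sham and were not called either.

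Il7r and Il16 are known from leukocytes, so markers of these cells are given beside them. Of the 4 pan-leukocyte markers, 4 had a lower mean with ghrelin than without, with a median difference of -0.54 beside 0.02 over all genes. In this comparison 1 of the 4 was called, beside 1.48% of all genes. This was Ptprc (CD45), at 8.42, 8.60 and 8.43 in sham, 8.71, 8.54 and 8.33 in BPH and 7.62, 7.68 and 7.83 in BPH+ghrelin. It fell by 0.82 on the log2 scale against BPH (SE 0.14, limma adjusted p = 0.0370). The mean log2 signal of the 4 markers was 9.25 to 9.74 in sham, 9.07 to 9.43 in BPH and 8.61 to 8.82 in BPH+ghrelin. Against sham, Ptprc and Coro1a were called lower in BPH+ghrelin (-0.78 and -0.88, limma adjusted p = 0.0190 and 0.0174), beside 6.29% of all genes called.

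Of the 7 T cell markers, 4 were weak: Cd3e was well above background on 1 array, Cd8a on 2 and Cd4 and Cd2 on 3 of 9. Over all genes, 4.34% were called in BPH against sham, 1.48% in BPH+ghrelin against BPH and 6.29% in BPH+ghrelin against sham. Cd3d, found on all arrays, was called lower in BPH against sham (-0.57, limma adjusted p = 0.0330) and in BPH+ghrelin against sham (-0.70, limma adjusted p = 0.0136), and differed by -0.12 between BPH+ghrelin and BPH. Cd3g, also found on all 9, and Lck, found on 8, each differed by -0.26 between BPH+ghrelin and BPH and were not called. The median over the 4 tested markers was -0.26 in that comparison. The mean log2 signal of all 7, which includes the probes near background, was 3.14 to 3.94 in sham, 4.04 to 4.39 in BPH and 3.04 to 3.36 in BPH+ghrelin. Of 6 macrophage markers, Mrc1 was called lower in BPH+ghrelin against BPH (-1.30, limma adjusted p = 0.0340) and Adgre1 higher in BPH against sham (1.18, limma adjusted p = 0.0434). The other macrophage markers were not called and did not all go the same way: in BPH against sham 3 of 6 had a lower mean, with Csf1r at -0.58 (limma adjusted p = 0.0796), and in BPH+ghrelin against BPH Csf1r was at 0.32 where the other 5 had a lower mean. The macrophage mean was 6.91 to 7.54 in sham, 7.19 to 7.43 in BPH and 6.67 to 7.00 in BPH+ghrelin. The part of leukocyte numbers in the values of Il7r, Il15, Il16 and Il1b was not tested.

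**Figure D5:**
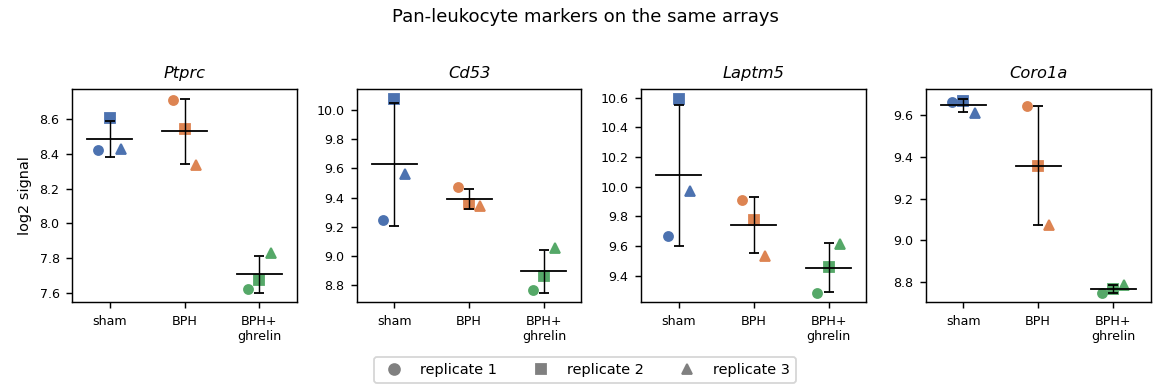
Log2 signal (vertical axis, own scale per panel) of the pan-leukocyte markers Ptprc, Cd53, Laptm5 and Coro1a on the 9 arrays by group, with symbols for single arrays, lines for means and bars for SD (n = 3). Ptprc lies at 7.62 to 7.83 in BPH+ghrelin and at 8.33 to 8.71 in BPH.

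Il33 is made mostly by fibroblasts, endothelium and epithelium in tissue. In BPH+ghrelin against BPH, 1.48% of all genes were called, and the median difference over all genes was 0.02. The fibroblast markers had a mean of 10.12 to 10.95 in sham, 10.86 to 11.11 in BPH and 10.40 to 10.82 in BPH+ghrelin, with 1 of 5 (Vim, -1.28, limma adjusted p = 0.0256) called lower in BPH+ghrelin against BPH. The endothelial mean was 7.78 to 8.01, 7.39 to 7.66 and 7.27 to 7.42, with 0 of 3 called in that comparison. Of 5 luminal epithelial markers, all had a lower mean in BPH+ghrelin than in BPH and 0 were called, and the list mean was 12.48 to 12.88 in sham, 12.88 to 13.34 in BPH and 12.79 to 12.99 in BPH+ghrelin. Of 3 basal epithelial markers, 0 were called in that comparison. All 5 smooth muscle markers also had a lower mean, and Myh11 was called (-0.96, limma adjusted p = 0.0157). Fat can adhere to dissected prostate, and the mean of 3 adipocyte markers was uneven, at 3.81 to 7.21 in sham, 6.63 to 7.41 in BPH and 2.37 to 7.05 in BPH+ghrelin. Adipoq (adiponectin) was at 3.28 on sham 1 and 0.58 on BPH+ghrelin 1 and at 9.99 to 12.03 on the other 7 arrays, while Lep was well above background on 0 arrays. The part of cell composition in the Il33 values was not tested.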

How the data were processed

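Prostate RNA of 9 rats was measured on one-colour arrays. The intensities deposited by the authors came from Feature Extraction 11.0.1.1, were background-subtracted and detrended, and were not normalized between arrays. The log2 matrix deposited by the authors had been quantile normalized and floored, and served as an alternative. Groups were taken from the sample labels. A figure legend of the study gives another dose and route of ghrelin than its methods, which were followed.

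Outlier spots and control spots were left out, spots of a probe were averaged, and log2 signals were quantile normalized (30356 of 30367 probes). Accessions were matched to RefSeq genes of GRCr8, which named 59.3% of the probes. The array annotation is of rn4, so no probe coordinates are given. Of several probes that passed for a gene, the brightest over all arrays was used. All 3 groups were fitted together with limma 3.58.1 in R 4.3.3 (lmFit, eBayes), tested on simulated data, with Benjamini-Hochberg adjustment over all genes tested. Named genes were members called, in each comparison and direction the 5 members with the greatest difference without overlap of the arrays, and a fixed list of well-known interleukin genes. Il1rapl2, Il9r, Il21r, Il17re and the genes of Il4r and Il13ra1 probe by probe were added after their values were seen. The members and lists were chosen with earlier results of these data known. Alternatives were 75th percentile scaling, normexp (on median signals), the filter, the mean of probes, slide (arrays with the same scan time) and replicate number as blocks, the deposited matrix, leaving out each array compared and, chosen after seeing the data, each array of the third group and values within a slide. The number of arrays limits the precision. The labels number the arrays as separate samples.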

Additional observations from a re-analysis of the deposited data

How the results depend on the processing

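No interleukin gene was called by limma in any of the 3 comparisons with normexp correction, without a filter, with slide as a block, with the replicate block or from the deposited matrix (0 each, beside 0.01% to 6.82% of all genes). At an unadjusted p under 0.05, the share of members was below that of all genes in 10 of these 15 fits and above it in 5. These were BPH+ghrelin against BPH with slide as a block (9 members, 22.5% beside 9.88%), with the replicate block (10, 25% beside 19.41%) and without a filter (14, 20.3% beside 17.71%), and with slide as a block BPH against sham (3, 7.32% beside 7.04%) and BPH+ghrelin against sham (6, 15% beside 13.29%). In BPH against sham, 1 was called when genes had to be well above background on all 6 arrays (beside 6.55% of all genes) and 1 with the mean of the probes (4.14%), and 0 to 3 when 1 of the 9 arrays was left out (3 of 41 without sham 1, beside 15.7% of all genes). In BPH+ghrelin against BPH, 1 was called with 75th percentile scaling (2.54%) and 0 to 5 when 1 of the 9 arrays was left out (5 of 40 without sham 2, beside 10.49%, and 1 without sham 1, beside 1.70%). Il18bp among the 5 met the filter through its BPH arrays alone. Leaving out arrays of the group not compared was chosen after seeing the data. In BPH+ghrelin against sham, 3 of 40 were called with 75th percentile scaling (6.91%; Il1r2 among them passed the filter through sham alone), 1 with the mean of the probes (6.16%) and 0 to 4 when 1 of the 9 was left out (4 of 40 without sham 2, beside 10.04%, and 2 without sham 1, beside 8.61%, Il1r2 among both). The difference of Il6st in BPH+ghrelin against BPH turned from -0.23 to 0.0093 with 75th percentile scaling, and that of Il13 in BPH+ghrelin against sham from 0.48 to -0.014 with normexp. The cause was not tested. Same-numbered arrays did not consistently deviate together: r was 0.30 for BPH+ghrelin 1 and sham 1 and -0.15 to 0.07 for the other pairs, so the numbers were not taken to pair the rats. The replicate block gave 0 members in each comparison and 242, 20 and 462 calls over all genes, in place of 849, 293 and 1207. With slide as a block, 2, 2 and 85 genes were called. Normexp adds an offset of 50 and so shrinks the differences of dim probes by construction: Il7r was at -0.27, Il15 at -0.32, Il16 at -0.33 and Il33 at -1.78 in BPH+ghrelin against BPH, and Il22ra2 at 0.21 and Il1r2 at -0.33 in BPH against sham.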
